A study of Mus musculus with 6 samples.

Results

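The genes described are 10 innate immune genes of the mouse: the RNA sensors Ifih1, Ddx58 and Dhx58, the nucleic acid sensor Zbp1, the adaptor Tmem173, the Toll-like receptors Tlr2, Tlr3 and Tlr4, the interferon gene Ifnb1 and the interferon receptor gene Ifnar1. They were taken by name, as every probe whose gene name in the scanner files is 1 of these symbols, which gave 16 probes for 10 of 24054 named genes. All samples were embryonic fibroblasts (MEFs) of ICR mice, which are connective tissue cells taken from embryos. Per2m/m, Clk/Clk and wild type cells had each received either a vector expressing H-Ras and SV40T or a mock, and total RNA of each of the 6 groups was read on 1 single-colour array. Clk/Clk cells carry a mutant Clock, by the series design, and Per2m/m cells a mutant Per2. Both genes belong to the circadian clock. H-Ras is a GTPase that acts as an oncogene when active, and SV40T, the T antigen of a polyomavirus, blocks the tumour suppressors p53 and RB. For the transfected Per2m/m cells 1 label, the source name, leaves out SV40, while the other labels name it with H-Ras.

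Cells detect viruses and misplaced nucleic acid through proteins of this kind. MDA5 (Ifih1) and RIG-I (Ddx58) bind double-stranded or uncapped RNA in the cytosol and signal through MAVS, and LGP2 (Dhx58) tunes both. ZBP1 binds Z-form nucleic acid and can trigger cell death through RIPK3, and STING (Tmem173) relays the signal of the DNA sensor cGAS. TLR3 sits in endosomes and binds double-stranded RNA, whereas TLR2 and TLR4 bind bacterial lipoproteins and lipopolysaccharide. Most of these routes end in interferon beta (Ifnb1), which acts on the receptor that contains IFNAR1 and switches on interferon-stimulated genes, and several of the sensors are such genes themselves.

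A level is the log2 signal of a probe over the 75th percentile of its array, so levels compare arrays for 1 probe and not 1 gene with another. A probe counts as detected where the scanner software called it well above background. Each array held 59305 spots that were not controls, with 49.3% to 57.2% well above background and 0 saturated, and repeated spots had a median SD of 0.05 to 0.06 (log2). With 1 array per group, this spot noise is the only spread measured within a group, and differences between 2 arrays have no test. They were read by size, as a 2-fold difference or more in which the brighter array was well above background. Of 19 fibroblast markers, Col1a1, Dcn, Pdgfra, Thy1 and Vim among them, 18 or 19 were well above background on each array. The exception was Lum, on the transfected Per2m/m and transfected wild type arrays. The transfected Per2m/m array stood apart, with correlations of 0.856 to 0.893 with the others across genes. Among sex-linked genes, Xist, Ddx3y and Eif2s3y were well above background in mock Per2m/m cells and not in transfected Per2m/m cells. Xist was also so on neither Clk/Clk array and on both wild type arrays, at levels of -6.63 in transfected and -6.79 in mock Clk/Clk cells, against -0.95 in transfected and -1.02 in mock wild type cells. Xist thus moved with the comparison of Clk/Clk with wild type cells, and its part in the differences between them was not tested. In bulk RNA, fewer cells of a type and less RNA per cell cannot be told apart.

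Of the 10 genes, 9 were well above background on at least 1 array and 7 on all 6. Ifnb1 was so on none. The 9 were analysed among 17687 genes. The plot of levels by array shows all 10.

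**Figure D1:**
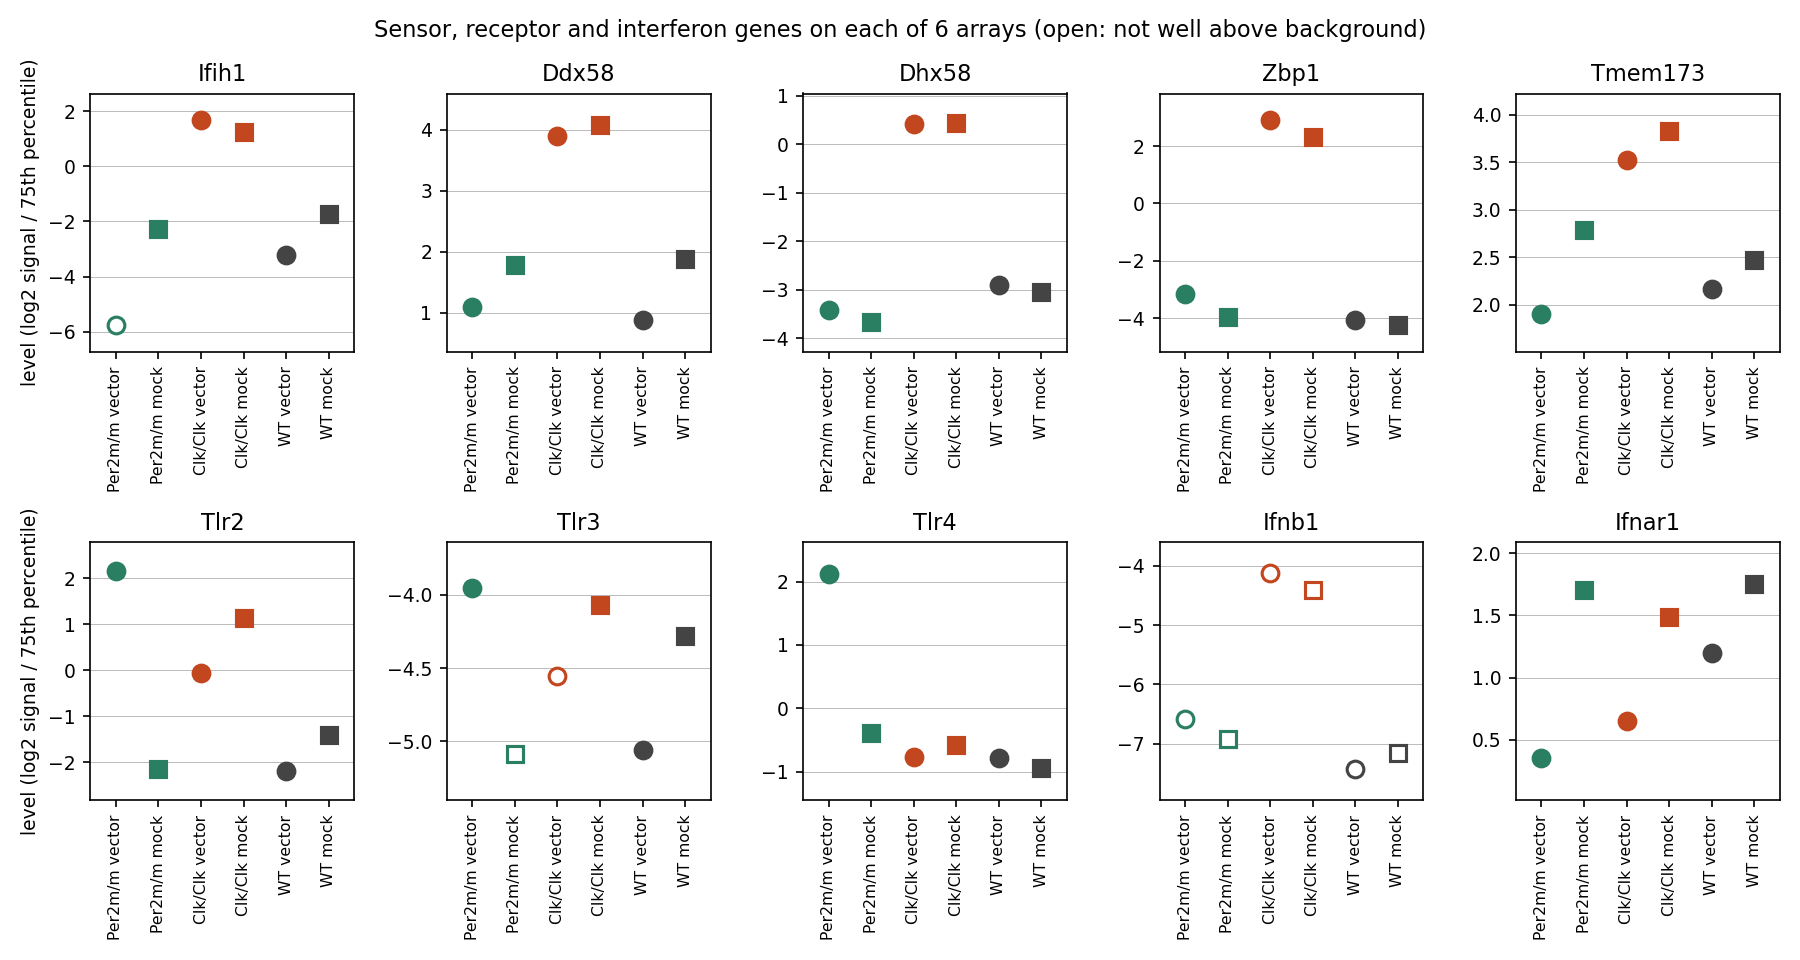
Level (log2 signal over the array's 75th percentile) of each of the 10 genes on each of the 6 arrays, 1 panel per gene with its own vertical scale; circles are transfected (vector) and squares mock cells, and open symbols are not well above background. Ifih1, Ddx58, Dhx58, Zbp1 and Tmem173 sit higher on both Clk/Clk arrays than on the other 4, and Tlr2 and Tlr4 are highest on the transfected Per2m/m array.

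On these arrays most of the 9 genes read higher in Clk/Clk than in wild type cells with and without the vector. Tlr3, Tlr4 and Ifnar1 were not 2-fold apart in either comparison. Between transfected cells, 6 of the 9 genes were at least 2-fold higher in Clk/Clk and 0 lower, where 25.2% of the 17687 genes were apart, 14.3% higher and 10.9% lower. Between mock cells it was again 6 higher and 0 lower, with 21.3% of all genes apart, 10.8% higher and 10.4% lower. The same 6 genes made up both counts, Ifih1, Ddx58, Dhx58, Zbp1, Tmem173 and Tlr2, where 6.19% of all genes were higher in both. The median difference over the 9 genes was 2.12 between transfected and 2.19 between mock cells, beside -0.09 and -0.04 over all genes. With the arrays scaled to their medians instead, the median of all genes moved to -0.74 and -0.37, the share of all 2-fold differences that were higher was 19.4% and 29.9% against 56.9% and 50.9%, and the transfected count became 5 higher and 1 lower.

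For 5 of the 9 genes both Clk/Clk arrays lay above all 4 other arrays, as did 15.5% of all genes. For 4 of them the lower Clk/Clk array was at least 2-fold above the highest of the other 4, which held for 3.77% of all genes. An additive limma model of genotype and transfection was fitted over the 6 arrays, with 2 residual degrees of freedom. Those hold differences between genotypes in transfected minus mock, beside array noise, and not a spread between replicates. In this model 0 of 17687 genes passed an adjusted p of 0.05 for Clk/Clk minus wild type. At an unadjusted p under 0.05 there were 1706 genes, or 9.65%, among them 5 of the 9.

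All 3 RIG-I-like receptors were higher in Clk/Clk than in wild type cells. The probe of Ifih1 lies on chromosome 2 from 62435507 to 62435566 (build mm9, minus strand), as do all coordinates of probes given here on that build. Its level was 1.69 in transfected and 1.25 in mock Clk/Clk cells, against -3.22 in transfected and -1.75 in mock wild type cells. In Per2m/m cells it was -2.29 with the mock, and the transfected array, at -5.77, was not well above background. Ifih1 thus differed between Clk/Clk and wild type by 30.1-fold in transfected and 7.95-fold in mock cells. Both Clk/Clk arrays lay above the other 4, as for 15.5% of all genes. Its coefficient for Clk/Clk minus wild type was 3.95 ± 1.04 (SE; limma, adjusted p = 0.452). A second, dimmer probe of Ifih1 was well above background on the transfected Clk/Clk array alone, at -3.74.

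Ddx58, read at chromosome 4, 40151893 to 40151952, had levels of 3.90 in transfected and 4.08 in mock Clk/Clk cells. It had 1.1 in transfected and 1.78 in mock Per2m/m cells, and 0.88 in transfected and 1.89 in mock wild type cells. The 2 Clk/Clk arrays were the highest, by 8.08-fold over wild type in transfected and 4.56-fold in mock cells, with a coefficient of 2.60 ± 0.36 (SE; limma, adjusted p = 0.283). A second probe of Ddx58 gave 7.08-fold in both. Dhx58, at chromosome 11, 100556271 to 100556330, had 0.42 in transfected and 0.43 in mock Clk/Clk cells, -3.42 in transfected and -3.66 in mock Per2m/m cells, and -2.90 in transfected and -3.05 in mock wild type cells. The difference from wild type was 9.97-fold in transfected and 11.2-fold in mock cells, and the coefficient 3.40 ± 0.30 (SE; limma, adjusted p = 0.260).

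The promoters of Ifih1 and Ddx58 share a motif, and these stretches are shown because the 2 genes moved together. Of the 10 genes, 6 have an entry in the RefSeq promoter table (GRCm38.p6), which runs from 250 bases before to 50 after a gene's start: Ifih1, Ddx58, Tlr2, Tlr3, Ifnb1 and Ifnar1. The core of the interferon-stimulated response element, GAAA repeated after a gap of 2 bases of any kind, was searched on both strands and found in 2 of these 6 and in 3.44% of all 32851 promoters. In Ifih1 it starts 33 bases into the transcript, in chr2:62646206-62646235 (minus strand). In Ddx58 it starts at base 3, read on the other strand, in chr4:40239804-40239833 (minus strand). Both windows of 30 bases are from RefSeq, 5′ to 3′, with the match in capitals.
Ifih1: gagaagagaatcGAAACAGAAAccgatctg
Ddx58: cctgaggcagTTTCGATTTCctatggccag
A match is a stretch of letters and was not measured as a binding site.

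Zbp1 differed most. Its probe at chromosome 2, 173039307 to 173039366, had levels of 2.91 in transfected and 2.33 in mock Clk/Clk cells, -3.14 in transfected and -3.96 in mock Per2m/m cells, and -4.06 in transfected and -4.25 in mock wild type cells. Both Clk/Clk arrays were far above the other 4, and the lower of them exceeded the highest of the 4 by 44.4-fold. Against wild type the difference was 126-fold in transfected and 95.7-fold in mock cells. The coefficient was 6.78 ± 0.34 (SE; 95% confidence interval 5.82 to 7.73; limma, adjusted p = 0.177), the fourth smallest p of all genes. A second probe of Zbp1, at 173032258 to 173032317, was well above background on the 2 Clk/Clk arrays alone. There the difference from wild type was at least 64.2-fold in transfected and at least 39.9-fold in mock cells.

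Tmem173 had the smallest step of the 5 that separated. At chromosome 18, 35893692 to 35893751, its level was 3.52 in transfected and 3.83 in mock Clk/Clk cells. It was 1.90 in transfected and 2.79 in mock Per2m/m cells, and 2.17 in transfected and 2.47 in mock wild type cells. Clk/Clk cells were above wild type by 2.56-fold with either treatment, and the gap between the lower Clk/Clk array and the highest other array was 1.66-fold. The coefficient was 1.36 ± 0.34 (SE; limma, adjusted p = 0.436).

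The probe of Ifnb1, the interferon beta gene, spans 88168023 to 88168082 of chromosome 4. Its processed signals were 21.5 in transfected and 17.9 in mock Clk/Clk cells, 4.41 in transfected and 4.44 in mock Per2m/m cells, and 3.71 in transfected and 3.43 in mock wild type cells. It was not well above background on any array, so no fold is given. The scanner software's weaker flag, positive and significant over background, was set for Ifnb1 on the 2 Clk/Clk arrays and on none of the other 4. Of 11 measured genes of other interferons, 0 were higher in Clk/Clk than in wild type cells by 2-fold, transfected or mock. Between transfected cells 2 were lower and between mock cells 0, where 10.9% and 10.4% of all genes were lower and 14.3% and 10.8% higher. These probes were dim, and 7 of the 11 were well above background on the transfected and 8 on the mock Clk/Clk array. Neither of the 2 lower genes was so on the transfected Clk/Clk array. The count of 2 was 5 with arrays scaled to their medians, 4 with quantile normalization and 0 with normexp.

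Ifnar1, the receptor subunit, did not follow the sensors. Its brightest probe, at chromosome 16, 91510673 to 91510732, had levels of 0.65 in transfected and 1.49 in mock Clk/Clk cells. The levels were 0.36 in transfected and 1.70 in mock Per2m/m cells, and 1.19 in transfected and 1.75 in mock wild type cells. Clk/Clk minus wild type was -0.40 ± 0.36 (SE; 95% confidence interval -1.42 to 0.62; limma, adjusted p = 0.738). The transfected array was below the mock array in each genotype, by differences of -1.35 in Per2m/m, -0.83 in Clk/Clk and -0.56 in wild type cells. Over the genotypes, transfected minus mock was -0.91 ± 0.29 (SE; limma, adjusted p = 0.695), and the probe at 91506635 to 91506693 gave a response of -0.24 for Per2m/m, one of -0.53 for Clk/Clk and a 1.00-fold difference for wild type. Another probe of Ifnar1, spanning 91503764 to 91505350, went its own way: mock Per2m/m cells were 4.33-fold above mock wild type there, where the brightest probe differed by 1.03-fold.

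The genes around the sensors differed in part with them. Among 20 other RNA sensors and effectors, 11 were higher and 1 lower in transfected Clk/Clk than in transfected wild type cells, beside 14.3% and 10.9% of all genes. Between mock cells 11 were higher and 0 lower, beside 10.8% and 10.4% of all genes. Scaled to array medians the counts for the 20 genes became 11 and 5, and 10 and 2. Oas1a and Oasl2, of the family that senses double-stranded RNA through oligoadenylate synthesis or is related to it, were higher by 670-fold and 914-fold in transfected cells, and by 59.4-fold and 209-fold in mock cells. Nod1, a sensor of bacterial cell wall peptides, was higher by 14.3-fold in transfected and 3.10-fold in mock cells.

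The counts for the signalling chain below the RIG-I-like receptors stand beside 25.2% of all genes apart between transfected and 21.3% between mock cells, and are near them. Of its 18 genes, 4 were higher and 1 lower in transfected Clk/Clk than in transfected wild type cells, or 2 and 3 with arrays scaled to their medians, and 3 higher and 0 lower between mock cells. Irf7, the transcription factor that amplifies interferon output, led with levels of 3.16 in transfected and 1.09 in mock Clk/Clk cells, against -4.93 in transfected and -3.67 in mock wild type cells. It was not well above background on either Per2m/m array. The adaptor Mavs and the factor Irf3, chosen after their values were seen, differed by -0.46 and -0.11 between transfected and by -0.57 and -0.25 between mock cells. Of 17 genes of cytosolic DNA sensing, 2 were higher and 5 lower between transfected cells, a balance that turned with the scaling, to 4 and 2 with quantile normalization and 2 and 10 with median scaling. Between mock cells 3 were higher and 0 lower. Ifi204, a DNA-binding protein of that list, was higher by 3.18-fold and 8.05-fold. Among 8 cell death partners of ZBP1 and the Toll-like receptors, 1 was higher and 1 lower between transfected and 0 higher and 1 lower between mock cells, or 0 and 4, and 0 and 3, with median scaling. The kinase Ripk3 differed by -0.44 between transfected and -0.82 between mock cells.

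Interferon-stimulated genes outside the 10 were higher in Clk/Clk cells in nearly every case. Of 45 measured, 40 were higher and 1 lower between transfected cells, with a median of 4.06. Between mock cells 40 were higher and 0 lower, with a median of 3.70. The shares over all genes were 14.3% higher and 10.9% lower between transfected, and 10.8% and 10.4% between mock cells. Both Clk/Clk arrays were above the other 4 for 39 of the 45, and for 15.5% of all genes. The list was chosen with earlier results of these data known. Trim30a, an interferon-induced TRIM protein, was higher by at least 190-fold in transfected and at least 120-fold in mock cells, and Uba7, the activating enzyme for ISG15, by 127-fold and 22.2-fold. Ifitm1, a membrane protein that restricts viruses, was the exception, at least 6.07-fold lower in transfected Clk/Clk than in transfected wild type cells and 5.75-fold higher in mock cells.

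Of 21 genes of interferon receptors and JAK-STAT signalling, 4 were higher and 0 lower between transfected cells, or 4 and 7 with median scaling. Between mock cells 7 were higher and 0 lower under either scaling. The 4 are 19.0% of the list, near the 14.3% of all genes higher there, and the list median was -0.03. In mock cells 33.3% of the list was higher, against 10.8% of all genes. Over all genes, 10.9% were lower between transfected and 10.4% between mock cells. Usp18, which dampens signalling at the interferon receptor, was higher by 351-fold in transfected and 48.5-fold in mock cells. Of 27 NF-kB target genes, 14 were higher and 0 lower between transfected cells, or 11 and 5 with arrays scaled to their medians. Between mock cells 16 were higher and 1 lower. The shares higher were 51.9% between transfected and 59.3% between mock cells, beside the same 14.3% and 10.8% of all genes. The cytokine Il6 was higher by 91.5-fold in transfected and 4.32-fold in mock cells, and the chemokine Cxcl5 by 23.1-fold and 67.8-fold. Oas1a, Nod1, Irf7, Uba7, Usp18 and Il6 were named at least in part for lower levels in transfected than in mock wild type cells. That transfected wild type array is also the reference of their transfected differences from Clk/Clk, so those sizes are partly selected. The plot of gene lists for Clk/Clk and wild type cells shows these groups side by side.

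**Figure D2:**
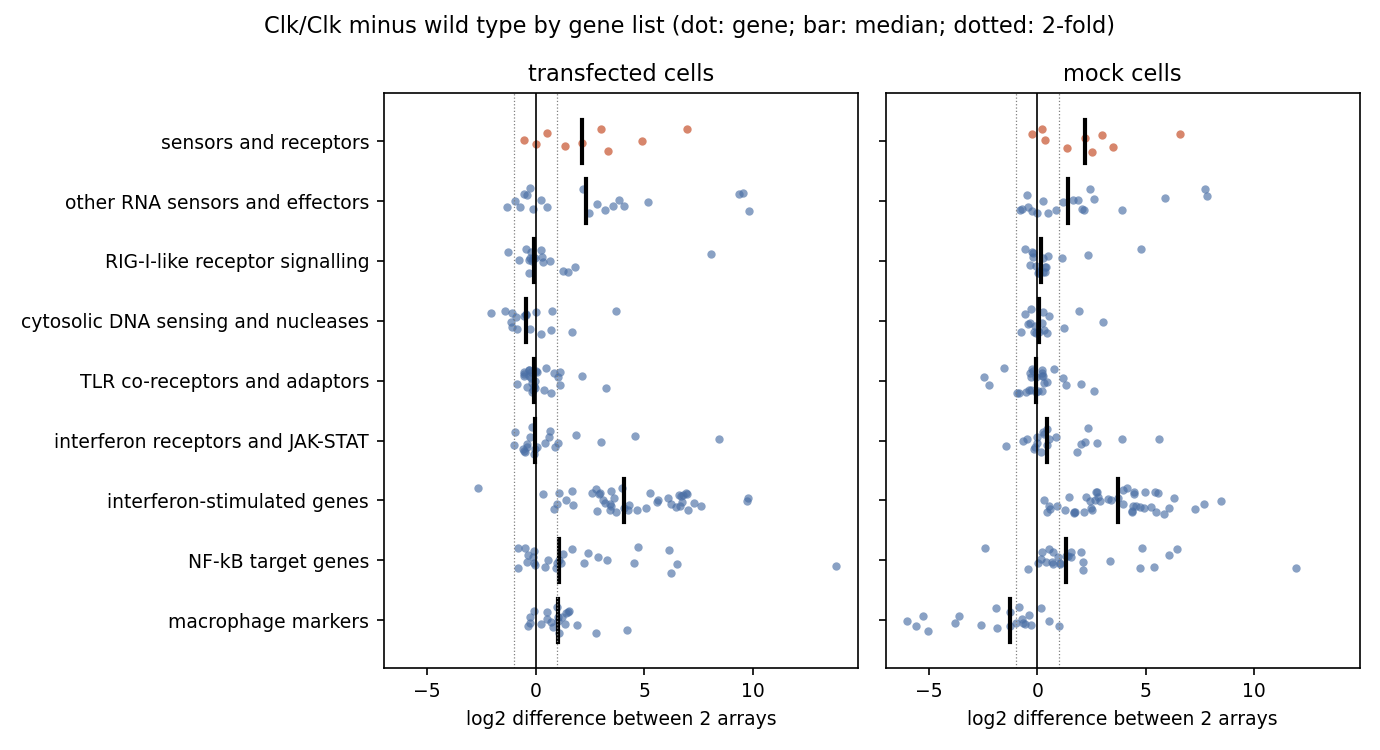
Log2 difference of Clk/Clk minus wild type for each gene (dots) of 9 gene lists, in transfected cells on the left and mock cells on the right; black bars are list medians and dotted lines mark 2-fold. Interferon-stimulated genes lie furthest to the right, with medians of 4.06 and 3.70, the 9 sensor and receptor genes have medians of 2.12 and 2.19, and the RIG-I-like receptor signalling genes have medians of -0.07 and 0.17, of which the first turns to 0.13 with quantile normalization and the second to -0.16 with median scaling.

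Markers of other cells also differed between these arrays. Of 21 macrophage markers, 9 were well above background on the transfected and 10 on the mock Clk/Clk array, against 9 on the transfected and 19 on the mock wild type array. Between transfected cells 5 were higher and 0 lower in Clk/Clk, or 2 and 0 with median scaling, beside 14.3% and 10.9% of all genes. Between mock cells 0 were higher and 10 lower, beside 10.8% and 10.4% of all genes. Their summed linear level was 55.4 on the transfected and 59.8 on the mock Clk/Clk array, against 21.96 on the transfected and 48.1 on the mock wild type array. Most of that sum was Itgam, chosen after its values were seen, and without it the sums were 5.07 on the transfected and 5.05 on the mock Clk/Clk array, against 2.6 on the transfected and 10.8 on the mock wild type array. On both Clk/Clk arrays Lyz2 and Tyrobp were not well above background, while Lyz1 was, as were Itgam, Csf1r, Aif1, Cd68, Fcer1g, C1qb and Coro1a, chosen after their values were seen. The part of other cell types in the differences between Clk/Clk and wild type cells was not tested.

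Of the 9 genes, Tlr2 and Tlr4 differed most between transfected Per2m/m and transfected wild type cells. Tlr2 was read by 10 spots of 1 probe at chromosome 3, 83640344 to 83640403. Its level was 2.15 ± 0.06 in transfected and -2.13 ± 0.13 in mock Per2m/m cells (SD over 10 and 9 spots of 1 array, which is spot noise only). It was -0.07 ± 0.09 in transfected and 1.13 ± 0.06 in mock Clk/Clk cells, and -2.18 ± 0.07 in transfected and -1.39 ± 0.11 in mock wild type cells (SD over 10 spots each). The transfected Per2m/m array was thus the highest and the mock Per2m/m array among the lowest, with both Clk/Clk arrays in between.

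Transfected Per2m/m cells had 19.5-fold more Tlr2 signal than mock Per2m/m cells and 20.2-fold more than transfected wild type cells. In Clk/Clk cells the transfected array was lower, with a difference of -1.19, and in wild type cells the difference was -0.79. Clk/Clk cells exceeded wild type by 4.34-fold when transfected and 5.74-fold with the mock. The coefficient for Clk/Clk minus wild type was 2.32 ± 1.59 and that for Per2m/m minus wild type 1.80 ± 1.59 (SE; limma, adjusted p = 0.670 and 0.933). When the mock Per2m/m array was left out, the Per2m/m coefficient of Tlr2 was 4.44, and without the transfected array it was -0.84. In each of these fits 1 array alone stood for the genotype and was assumed to vary like the rest, so no p-value is given.

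The 250 bases before the Tlr2 start are shown because Tlr2 had the largest response of the 9 genes. They lie at chr3:83841609-83841858 (GRCm38.p6, minus strand, from RefSeq, 5′ to 3′), and capitals mark matches to a loose form of the NF-kB site, GGG and CC with 5 bases of any kind between them, on either strand and with overlaps joined.
Tlr2: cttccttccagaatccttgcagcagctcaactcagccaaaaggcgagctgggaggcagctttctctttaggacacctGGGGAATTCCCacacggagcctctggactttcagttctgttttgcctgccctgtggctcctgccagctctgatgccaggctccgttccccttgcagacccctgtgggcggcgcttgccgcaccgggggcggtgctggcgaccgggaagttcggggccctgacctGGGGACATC
The first match begins 173 bases before the start, and the last runs past it. Tlr3 and Ifnb1 held this motif as well, as did 50.8% of all promoters. A stricter NF-kB consensus, CACGTG and TGANTCA were found in none of the 6 promoters and in 0.155%, 7.15% and 7.81% of all.

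Tlr4, read by 2 spots at chromosome 4, 66503470 to 66503529, had a level of 2.12 in transfected and -0.39 in mock Per2m/m cells. It had -0.77 in transfected and -0.57 in mock Clk/Clk cells, and -0.78 in transfected and -0.94 in mock wild type cells. Only the transfected Per2m/m array stood out, 5.69-fold above mock Per2m/m and 7.44-fold above transfected wild type cells. The coefficient for Per2m/m minus wild type was 1.72 ± 0.81 (SE; limma, adjusted p = 0.933). A second Tlr4 probe, for another transcript, was not well above background on any array.

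Tlr3 was dim everywhere. At chromosome 8, 46481729 to 46481788, its level was -3.95 in transfected Per2m/m cells and -5.09, not well above background, in mock Per2m/m cells. It was -4.55, not well above background, in transfected and -4.07 in mock Clk/Clk cells, and -5.06 in transfected and -4.28 in mock wild type cells. Transfected Per2m/m cells were 2.15-fold above transfected wild type and at least 2.04-fold above mock Per2m/m cells. Clk/Clk minus wild type was 0.36 ± 0.60 (SE; limma, adjusted p = 0.862), and it turned to -0.13 with arrays scaled to their medians and to -0.19 with quantile normalization.

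**Figure D3:**
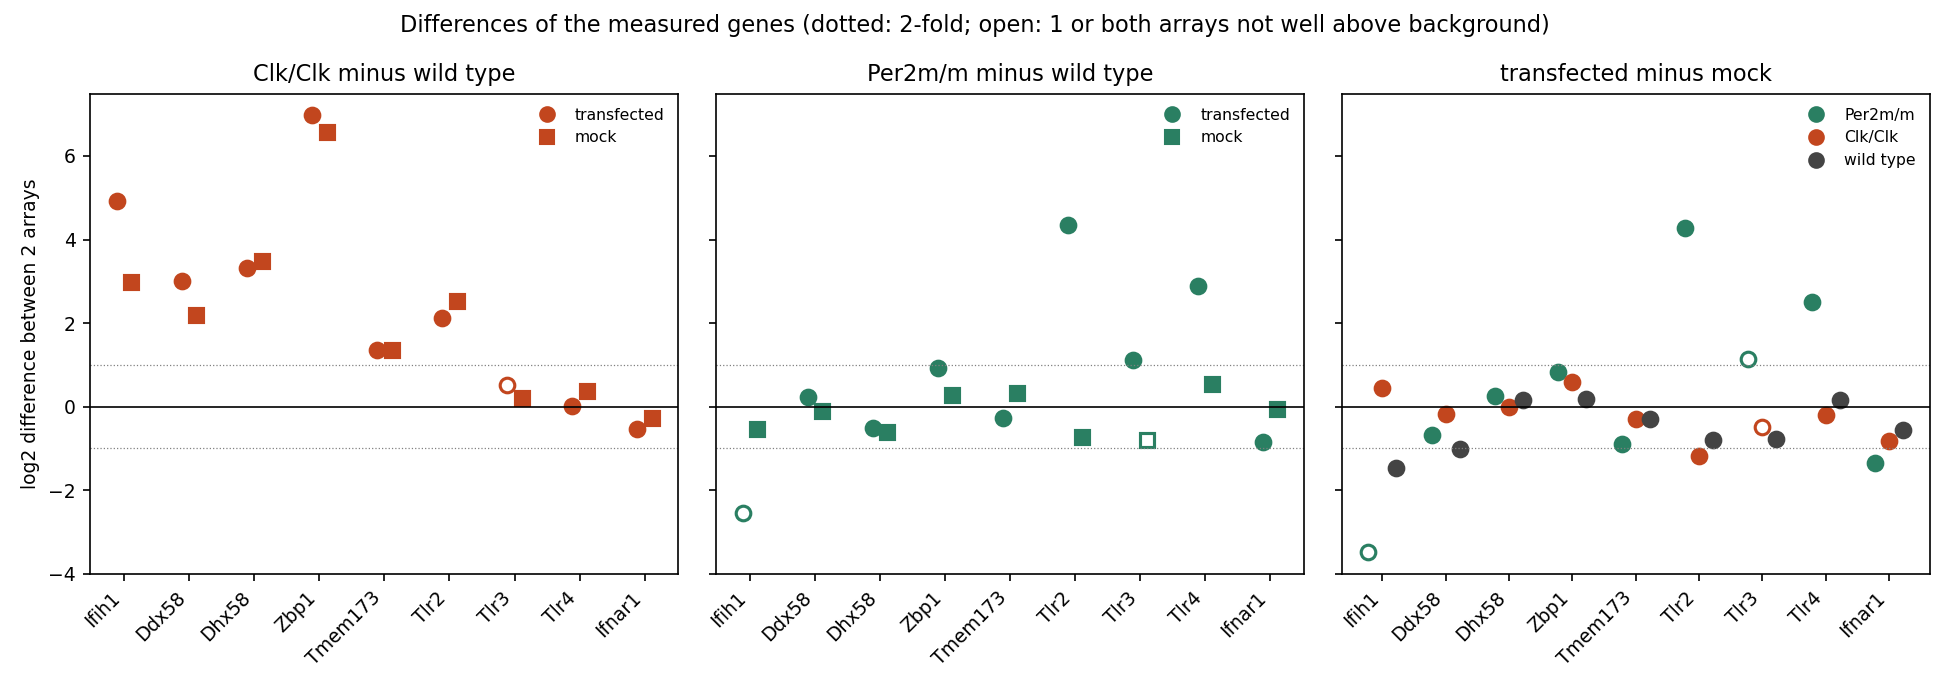
Log2 differences between 2 arrays for the 9 measured genes: Clk/Clk minus wild type (left), Per2m/m minus wild type (middle) and transfected minus mock in each genotype (right); dotted lines mark 2-fold and open symbols a comparison in which at least 1 array was not well above background. Zbp1 reaches 6.97 and 6.58 on the left, and Tlr2 and Tlr4 reach 4.28 and 2.51 for Per2m/m cells on the right.

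Between mock Per2m/m and mock wild type cells no sensor was 2-fold apart. Of the 9 genes 0 were, where 9.04% of all genes were, 4.38% higher and 4.66% lower, and Tlr2 differed by -0.74. With the vector, Tlr2, Tlr4 and Tlr3 were higher and Ifih1 at least 2.58-fold lower, 3 higher and 1 lower where 30.9% of all genes were apart, 14.7% higher and 16.2% lower. These comparisons use the same wild type arrays as those of Clk/Clk. In the limma model 0 of 17687 genes passed for Per2m/m minus wild type, 405 had an unadjusted p under 0.05 (2.29%), and 0 of the 9 were among them. With either Per2m/m array left out, 1 array alone stood for the genotype, so no count of genes passing is given for those fits.

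The comparison of transfected with mock cells asks what accompanied H-Ras and SV40T in each genotype. The labels do not say whether the 2 arrays of a genotype come from 1 culture, and Xist, Ddx3y and Eif2s3y differed between the Per2m/m arrays as given above, so in Per2m/m cells the vector and a difference between cultures cannot be told apart. In Per2m/m cells 39.2% of all genes were at least 2-fold apart, 18.6% higher and 20.6% lower, and of the 9 genes 3 were higher and 2 lower. The higher ones were Tlr2, Tlr4 and Tlr3. Ifih1 was at least 4.92-fold and Ifnar1 2.54-fold lower. With 5 of 9 apart against 39.2% of all genes, the count is near that of genes at large. In Clk/Clk cells 0 were higher and 1, Tlr2, was lower by 2.29-fold, beside 7.92% of all genes apart, 3.72% higher and 4.2% lower. In wild type cells 0 were higher and 2 lower, Ifih1 by 2.78-fold and Ddx58 by 2.01-fold, beside 19.5% of all genes apart, 7.4% higher and 12.1% lower. The second probe of Ddx58 differed by 1.04-fold there. The median response of the 9 genes was 0.24 in Per2m/m, -0.20 in Clk/Clk and -0.56 in wild type cells, beside 0.12, 0.01 and -0.01 over all genes. With arrays scaled to their medians, the share of all 2-fold differences that were higher became 59.2% in Per2m/m cells, against 47.5%, and 62.2% in wild type cells, against 38.0%.

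Over the 3 genotypes together, transfected minus mock passed for 0 of 17687 genes in the limma model, with 819 at an unadjusted p under 0.05 (4.63%), 1 of them among the 9, Ifnar1. The coefficient of Zbp1 was 0.53 ± 0.28 and that of Dhx58 0.13 ± 0.25, and both Clk/Clk arrays stayed above the rest for these genes with either treatment. Responses of Zbp1 were 0.82 in Per2m/m, 0.58 in Clk/Clk and 0.19 in wild type cells, and those of Dhx58 0.24, -0.02 and 0.15. Those of Tmem173 were -0.89, -0.31 and -0.31. Ifih1 had 0.44 in Clk/Clk cells, where the other 2 genotypes had negative responses. Ddx58 had -0.68, -0.18 and -1.01.

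Of 27 co-receptors and adaptors, 3 were higher and 0 lower in transfected Clk/Clk than in transfected wild type cells, beside 14.3% and 10.9% of all genes. Between mock cells 4 were higher and 3 lower, beside 10.8% and 10.4% of all genes. With median scaling 2 were higher and 5 lower in both comparisons. In transfected against mock Per2m/m cells 7 were higher and 6 lower, where 18.6% of all genes were higher and 20.6% lower, so the list was near genes at large. Sigirr, a receptor that restrains Toll-like and interleukin-1 receptor signalling, was higher by 69.8-fold. Unc93b1, which carries TLR3 and other nucleic acid sensing Toll-like receptors to endosomes, was lower by at least 46.8-fold. Cd14 and Ly96, co-receptors for lipopolysaccharide with TLR4, were chosen after their values were seen. Cd14 had levels of 1.5 in transfected and 0.52 in mock Per2m/m cells, and Ly96 1.87 in transfected and 0.83 in mock Per2m/m cells. In wild type cells Cd14 had 1.15 in transfected and 0.15 in mock cells, and Ly96 0.43 and 0.58. In Clk/Clk cells Cd14 had 1.20 in transfected and 1.46 in mock cells, and Ly96 0.36 and 0.30. Lbp, also of that list, was at least 3.76-fold lower in transfected than in mock Per2m/m cells. Of 5 other measured Toll-like receptors, 0 were higher and 1 lower in that comparison, Tlr1, which pairs with TLR2, by 5.23-fold. Clk/Clk cells also had less Tlr1 than wild type, at least 4.08-fold less when transfected and at least 5.44-fold less with the mock.

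Counts of downstream genes are given for each genotype, beside the shares of all genes higher and lower. Those shares were 18.6% and 20.6% in Per2m/m, 3.72% and 4.2% in Clk/Clk, and 7.4% and 12.1% in wild type cells. Of 45 interferon-stimulated genes, 24 were higher and 7 lower in transfected than in mock Per2m/m cells, 4 higher and 5 lower in Clk/Clk cells, and 3 higher and 16 lower in wild type cells. The medians were 1.13, 0.04 and -0.82. Psmb9, an immunoproteasome subunit, was 36.8-fold higher and the chemokine Ccl5 27.6-fold higher in transfected Per2m/m cells, while Parp12 was at least 9.84-fold lower. In wild type cells the vector went with less Ifi44, at least 6.00-fold, and less Uba7, 6.80-fold. Of 27 NF-kB target genes, 6 were higher and 7 lower in transfected Per2m/m cells, or 22.2% and 25.9%, near genes at large. Il6 was lower by 43.6-fold and Cxcl5 higher by 9.82-fold. In wild type cells 3 were higher and 3 lower, or 11.1% each and also near genes at large, with Il6 lower by 38.8-fold. In Clk/Clk cells 1 was higher and 5 lower, or 3.7% and 18.5%. Among 20 other RNA sensors and effectors the counts were 6 higher and 3 lower for Per2m/m, 2 and 0 for Clk/Clk, and 0 and 5 for wild type. In Per2m/m cells Oasl1 was at least 219-fold higher with the vector, and in Clk/Clk cells 3.18-fold. Ripk3, the kinase through which ZBP1 can kill a cell, was 64.5-fold lower in transfected than in mock Per2m/m cells. Differences between genotypes in these responses were not tested.

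**Figure D4:**
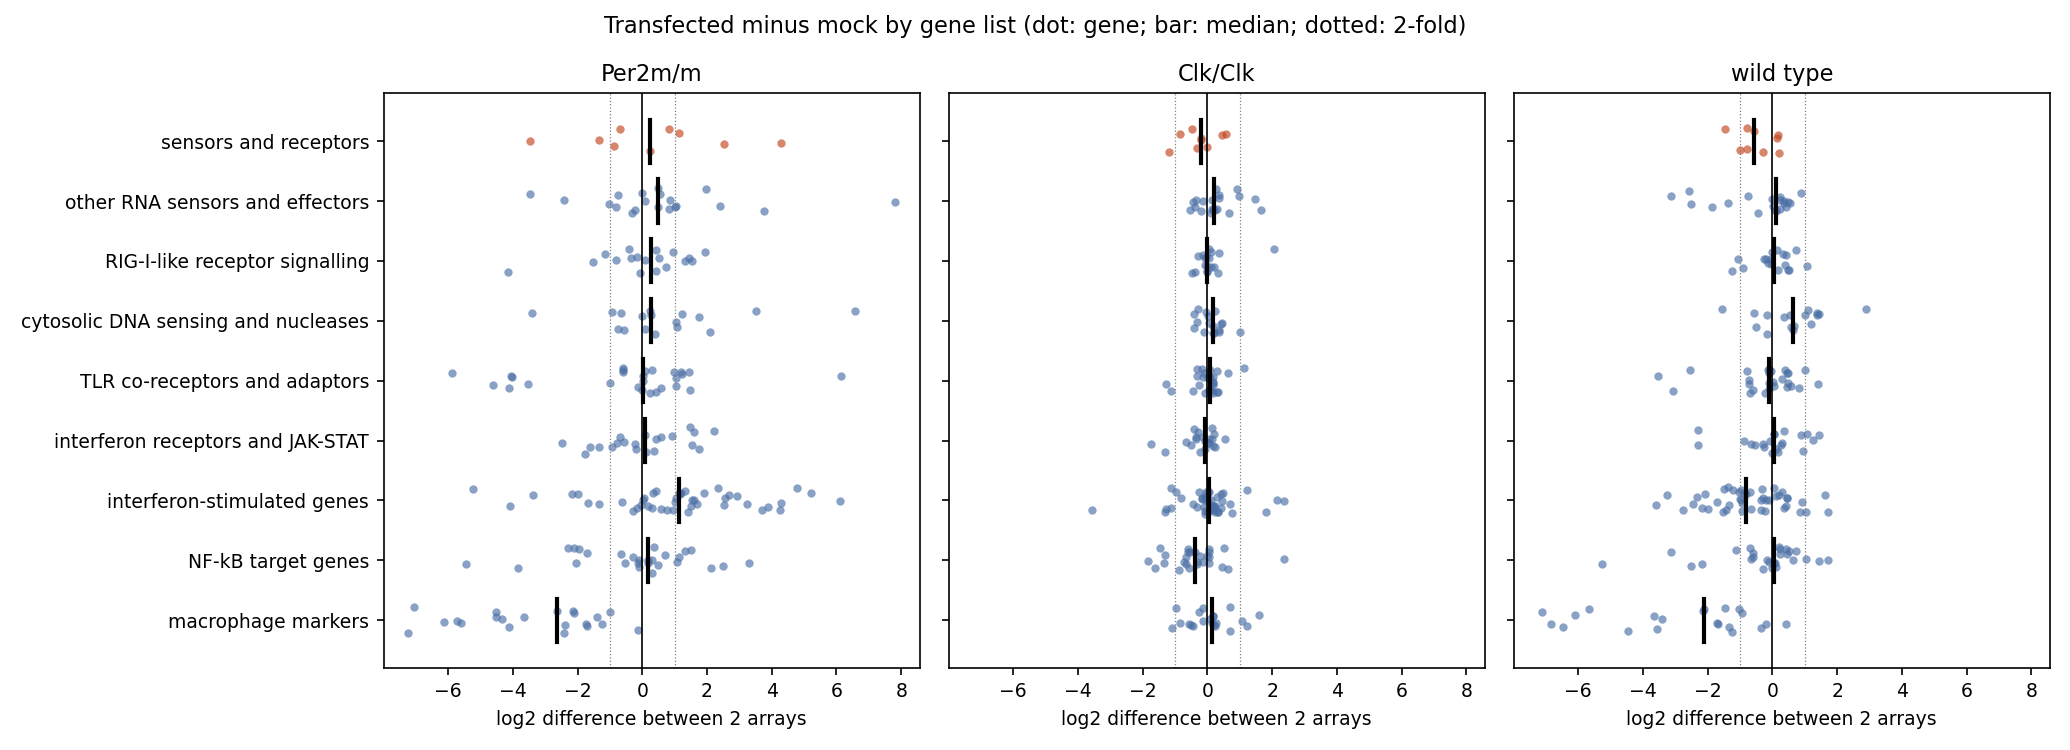
Log2 difference of transfected minus mock for each gene (dots) of 9 gene lists in Per2m/m, Clk/Clk and wild type cells; black bars are list medians and dotted lines mark 2-fold. Interferon-stimulated genes have medians of 1.13, 0.04 and -0.82, and macrophage markers -2.64, 0.15 and -2.12.

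Cell type markers moved in the same responses. The shares of all genes higher and lower were 18.6% and 20.6% in Per2m/m, 3.72% and 4.2% in Clk/Clk, and 7.4% and 12.1% in wild type cells. Of 21 macrophage markers, 0 were higher and 19 lower in transfected than in mock Per2m/m cells. The counts were 0 and 1 for Clk/Clk, and 0 and 16 for wild type. Their summed linear level was 15.9 on the transfected and 60.3 on the mock Per2m/m array, where 9 and 21 of them were well above background, and without Itgam it was 4.45 on the transfected and 21.9 on the mock array. On the transfected Per2m/m array Tyrobp, Ctss and C1qa were among the 12 not well above background, and Lyz1 and Lyz2 among the 9 that were. Of 19 fibroblast markers, 1 was higher and 11 lower in transfected Per2m/m cells, with Thy1 lower by 218-fold. The epithelial markers Krt8 and Cdh1, chosen after their values were seen, were well above background on the transfected Per2m/m array alone, at -2.60 and -3.29. Of 13 epithelial markers 4 were higher and 3 lower in transfected than in mock Per2m/m cells, with Krt14 higher by 104-fold. The 3 lower were Krt19, Krt7 and Krt18, by at least 88.1-fold, 22.9-fold and 16.0-fold, and they were not well above background on the transfected array. Of 8 endothelial markers 1 was higher and 4 lower. The part of these cell types in the Toll-like receptor differences was not tested.

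Some genes followed the 9 closely over the 6 arrays, among 15554 genes well above background on at least 3 of them. By Pearson's r, as a description over 6 arrays of which 2 share the Clk/Clk genotype, Arnt2 was nearest to Ifih1 (r = 0.999) and Zmynd15 to Ddx58 (0.997). Grin3b was nearest to Zbp1 (0.999), Krtap5-3 to Tmem173 (0.992) and 1110035E04Rik to Dhx58 (0.998). Tmem44 was nearest to Tlr2 (0.996), Amdhd2 to Tlr3 (0.991), Glt8d2 to Tlr4 (0.996) and Pxmp4 to Ifnar1 (0.996). Each is the highest r of 15554 genes over 6 arrays, and none was tested.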

How the data were processed

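Total RNA of mouse embryonic fibroblasts was read on 6 single-colour (Cy3) arrays on 1 slide, 1 per group, grouped by the titles. Both Per2m/m arrays lay in row 2 of the slide and the other 4 in row 1, so row and the Per2m/m genotype cannot be told apart. The deposited scanner files give a linear fluorescence intensity for each spot, extracted with Feature Extraction 10.7.1.1 per the file headers, while the submitters' processing notes name 9.5.1.1. The authors' deposited value table, also intensity, held quantile-normalized processed signal and served as an alternative.

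Spots flagged as outliers (85 to 125 per array) were left out, spots of a probe averaged, and log2 processed signal was taken relative to the array's 75th percentile. Of 55681 probes, 27235 were named by accession, 3581 by symbol and 565 by synonym through a RefSeq table (GRCm38.p6), 1817 took the array's own name and 22483 have none here. Probes well above background on at least 1 array were kept, and the brightest kept probe, by mean level, stands for its gene. Where 1 array was not well above background, a fold is given as "at least", against the lowest level well above background on that array or, if higher, the dim probe's own. A count at 2-fold used the measured values, so a few calls rest on values below that bound. Coordinates of probes come from the files (mm9).

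The additive model used limma 3.58.1 under R 4.3.3, with eBayes, two-sided p-values and Benjamini-Hochberg adjustment over 17687 genes, and was tested on simulated data. Nothing in the labels says the samples are separate cultures of a group. The p-values rest on differences between genotypes in transfected minus mock and on array noise, and not on a spread between replicates. Python 3.11.15, pandas 2.3.3, numpy 2.4.6 and matplotlib 3.10.9 were used. The 10 genes and the 14 gene lists were chosen with earlier results of these data known. Named genes of a list are the up to 4 with the largest 2-fold response in Per2m/m cells and up to 3 for each other genotype. The nearest gene is the one with the highest r. Alternatives covered scaling, background correction, the filter, the probe rule, the fold limit and each array left out.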

Additional observations from a re-analysis of the deposited data

Results flagged for a closer look

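Tlr2 was at least 2-fold apart between transfected and mock cells in opposite directions in 2 genotypes, higher in Per2m/m cells (4.28) and lower in Clk/Clk cells (-1.19). The responses differed by 5.48 on the log2 scale. Each response rests on 1 array per group, so this difference was not tested.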

How the results depend on the processing

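Each result was recomputed under other scalings, a background correction, other filters, probe rules and a fold limit, and with each array left out. Of the counts, 100 stayed within 1.5 times the value given and 12 did not. Genes past the threshold for Per2m/m minus wild type ranged from 0 to 558 with an array left out. Members apart in the Per2m/m response were 3 among probes well above background on all 6 arrays and 8 at 1.5-fold, against 5. In the Clk/Clk response there were 2 at 1.5-fold, against 1. In the wild type response there was 1 with median scaling, normexp, the mean over probes or detection on all 6 arrays, and 4 at 1.5-fold, against 2. Mock Per2m/m against mock wild type gave 3 at 1.5-fold, against 0, and transfected Per2m/m against transfected wild type gave 2 with normexp or detection on all 6 arrays, against 4. The 6 members higher in Clk/Clk cells were 5 when only genes detected on all 6 arrays were kept, and both Clk/Clk arrays were above the others for 4 to 6 members under alternatives chosen after seeing the data.

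No coefficient of a member that changed sign had passed the threshold. Transfected minus mock turned for Tlr3 (0.16 with median scaling, 0.093 with quantile normalization and the deposited table, 0.0094 with normexp; -0.63 to 0.32 with an array left out) and Zbp1 (-0.32 with the mean over probes). With an array left out it ranged from -0.99 to 1.75 for Tlr2 and from -0.019 to 1.34 for Tlr4. Clk/Clk minus wild type turned for Tlr3 (-0.13 with median scaling, -0.19 with quantile normalization and the table; -0.19 to 0.91) and Tlr4 (-0.30 with median scaling; -0.58 to 0.95). Per2m/m minus wild type turned for Tmem173 (-0.0085 with quantile normalization, -0.011 with the table; -0.27 to 0.32), Ddx58 (-0.073 with the mean over probes; -0.24 to 0.34) and Ifnar1 (0.24 with the mean over probes), and ranged from -0.84 to 4.44 for Tlr2 and from -0.73 to 1.03 for Tlr3. The cause was not tested, save that leaving out an array leaves fewer samples. The model pairs the mock and transfected array of each genotype through its genotype term. Without that pairing (no replicate block) 0 genes passed for transfected minus mock, with a lowest adjusted p of 0.833 by limma, as 0 did with it. The number of arrays limits the precision, and Tlr3, Ifnb1 and Ifih1 on the transfected Per2m/m array are limited by signal over background.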
